A study of Drosophila melanogaster with 75 samples.

Results

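The mitochondrial ribosomal protein genes of the fruit fly Drosophila melanogaster were followed in male heads across 3 arms of a courtship experiment. The genes were taken as every probe set, a group of array probes that reads 1 transcript, whose only gene symbol on the array is mRpL or mRpS followed by a number. This rule gave 71 probe sets for 69 genes, of 18769 probe sets for 11982 named genes on the array, and used no measured value. Of the 71 probe sets, 45 belonged to 44 genes of the large subunit (mRpL) and 26 to 25 genes of the small subunit (mRpS). All 71 passed the filter on dim probe sets, which kept 8926 probe sets of the array.

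Each of the 15 arrays carried RNA from 1 pool of 20 heads, 5 pools an arm, and no sample was a single fly. All flies were virgin males of the wild-type strain isogenized Canton-S, 5 days old, raised in groups and kept alone in a vial from the day before the test. Males of the courtship arm met a cauterized virgin female for 20 min, and males of the control arm met no female for the same 20 min. The third arm has the title male. Its treatment is labelled like that of the courtship arm, its titles and sample codes differ from both, and the labels do not settle what these males met. The labels of all 3 arms, the control included, carry the same sentence that only males courting robustly (70% of the time watched) were taken. Whether pools came from separate cultures is not stated, so p-values measure the spread between pools.

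The mitochondrial ribosome makes the few proteins that mitochondrial DNA still encodes, nearly all of them membrane subunits of the respiratory chain and the ATP synthase. Its RNAs come from mitochondrial DNA, while all of its proteins are encoded in the nucleus, made in the cytosol and imported. In Drosophila a mutation of tko, which encodes the S12 protein of this ribosome, causes seizures on mechanical shock and poor male courtship.

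Values are log2 of the intensities that the authors computed with GCRMA in R, a method that subtracts background and scales arrays to each other. A difference of 1 arm from another is therefore on the log2 scale, and its SE comes from a limma model over all 15 arrays. A probe set was called when its p, adjusted by Benjamini-Hochberg over all 8926 tested probe sets, was below 0.05. Heads hold many cell types, so fewer cells of a type and less RNA per cell cannot be told apart in these values. Correlations between arrays were 0.939 to 0.996, no 2 arrays were identical, and their number limits the precision. Male arrays 1 and 5 and control array 1 stood apart in RNA quality: 5 pairs of control probe sets read the 3′ and 5′ ends of 1 transcript each, and their log2 signal ratio, 3′ to 5′, which grows as RNA is broken or copied short, averaged 3.99, 3.26 and 3.54 on them and 2.50 to 2.90 on the other 12 arrays. Differences of the male arm are given with and without male arrays 1 and 5. Testis and accessory gland markers, which heads should lack, were below the filter in 7 of 7 probe sets.

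The 71 probe sets moved up and down together from pool to pool, whatever the arm. After each arm's mean was taken away, the correlation of a member with the mean of the other members over the 15 arrays had a median of 0.88, and 66 of 71 exceeded 0.5. Over the other 8855 tested probe sets, the correlation with the same mean had a median of 0.16, and 25.8% exceeded 0.5. On the 12 arrays without raised ratios, the median over members was 0.82 and 68 of 71 exceeded 0.5, against a median of 0.15 and 24.2% over the other probe sets. Such movement was not confined to the members. The mean of nuclear oxidative phosphorylation genes, relative to the control arm, was highest on male arrays 1 and 5 (0.19 and 0.18). It was lowest on courtship array 2 and control array 4 (-0.05 each), and the members' mean had its extremes on the same arrays. These are descriptions: the arrays share their scaling, and genes are not independent replicates.

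mRpS5, whose bacterial counterpart lines the channel by which mRNA enters the small subunit, ran against the rest. Its correlation with the other members was -0.69 over 15 arrays and -0.55 over the 12 arrays, the only negative value among the 71 in both. The next lowest values over 15 arrays were 0.01 for mRpL38 and 0.29 for mRpL3, which stood at 0.48 and 0.52 over the 12 arrays. mRpL38 and mRpL3 were picked out for these values after they had been seen.

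**Figure D1:**
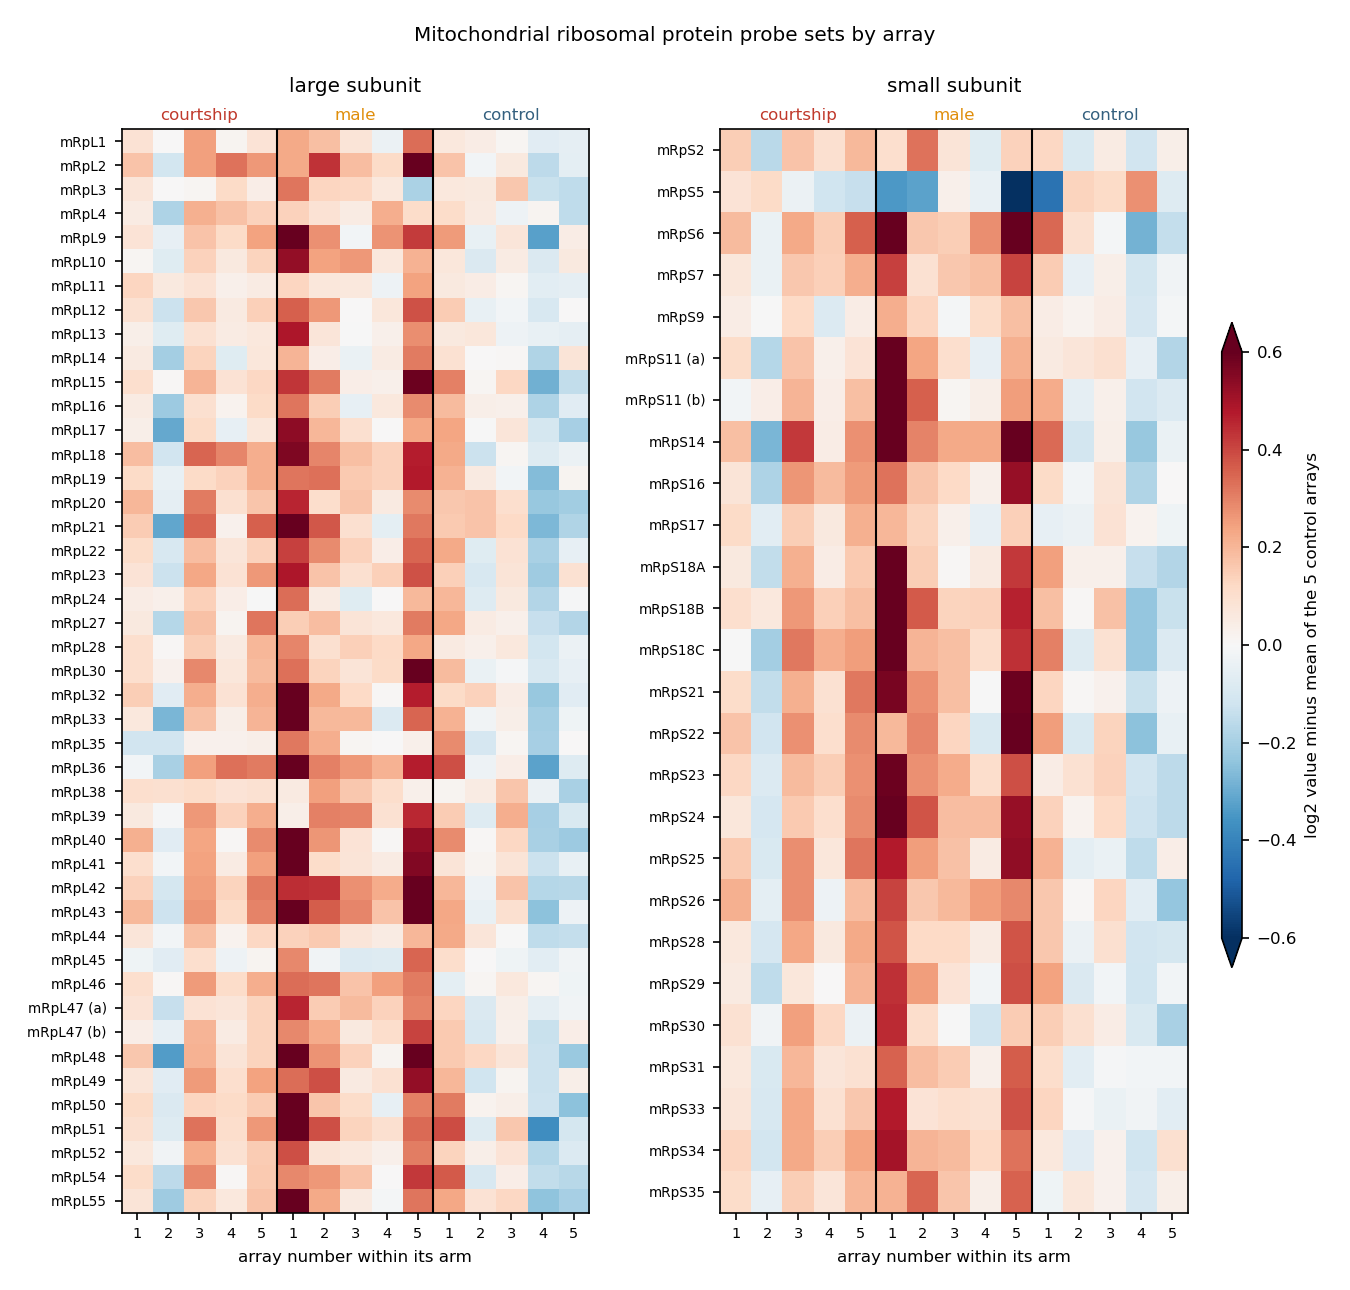
Log2 value of each of the 71 probe sets on each array minus its mean over the 5 control arrays, large subunit on the left and small subunit on the right, with courtship, male and control arrays from left to right; (a) and (b) are the 2 probe sets of a gene and colours are capped at 0.6. Male arrays 1 and 5 are the reddest columns, control array 4 and courtship array 2 the bluest, and the row of mRpS5 runs the other way.

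The average of the 71 probe sets gives this pool-to-pool movement in 1 value per array, set at 0 for the mean of the control arm. It was 0.09, -0.09, 0.20, 0.08 and 0.18 on courtship arrays 1 to 5, and 0.44, 0.21, 0.11, 0.07 and 0.36 on male arrays 1 to 5. On control arrays 1 to 5 it was 0.16, -0.00, 0.06, -0.14 and -0.07. The means were 0.09 ± 0.11 in the courtship arm, 0.24 ± 0.16 in the male arm and 0 ± 0.12 in the control arm (SD, n = 5 each). All 5 male arrays and 4 of 5 courtship arrays lay above the control mean, yet the lowest male array lay below the highest control array, so the arms overlapped.

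The same order showed member by member. On the courtship arrays 66, 12, 70, 65 and 68 of the 71 probe sets were above their control mean, and on the male arrays 70, 69, 63, 56 and 69 were. On the control arrays the counts were 67, 36, 59, 4 and 14. Control array 1, with a raised 3′ over 5′ ratio, was thus as high as a male array, and courtship array 2 was as low as a control array. Of the 71 probe sets, 42 were highest on male array 1, 22 on male array 5 and 7 on another array, while 36 were lowest on control array 4, 18 on courtship array 2 and 17 elsewhere.

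**Figure D2:**
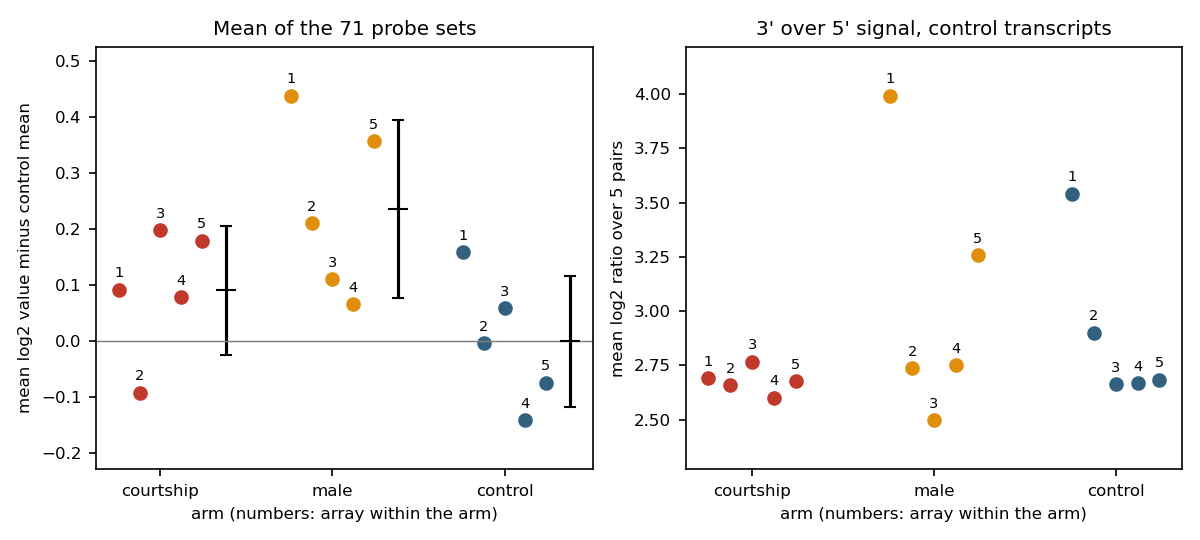
Left, mean over the 71 probe sets of the log2 value minus the control mean, by array (numbered points) with the arm's mean and SD in black (n = 5); right, the 3′ to 5′ signal ratio of the same arrays (log2, averaged over 5 control pairs). The 3 arrays with the highest ratios, male 1, control 1 and male 5, are also the highest or among the highest of their arm on the left.

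In courtship males against control males the members leaned upward by small amounts, and none was called. Of the 71 probe sets 66 were higher and 5 lower, with a median difference of 0.10 (1.07-fold) and a range of -0.03 to 0.19. Over all 8926 tested probe sets 4854 were higher and 4072 lower, with a median of 0.01. limma called 0 members and 0% of all tested probe sets as higher. At an unadjusted p below 0.05, 1 member was higher, mRpL46, against a background of 1.64% of all tested probe sets, and the other 4 processings, like every other setting tried, also called 0 members. No member had all 5 courtship arrays above all 5 control arrays, a pattern found in 0.359% of all tested probe sets.

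Both subunits lay together in this comparison with the values used. In the large subunit 41 of 45 probe sets were higher with a median of 0.09, and in the small subunit 25 of 26 were higher with a median of 0.10. With MAS5 they lay further apart: 35 of 45 were higher with a median of 0.05 in the large subunit, and 25 of 26 with 0.09 in the small. Of the 71 probe sets 55 were higher in all 5 of the authors' processings and 0 were lower in all 5. The 5 lower probe sets in these values were mRpL35, mRpL17, mRpS5, mRpL14 and mRpL45, at -0.03 to -0.0005, differences well within their SEs.

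The 5 members with the smallest p and 1 sign in 3 processings were mRpL46, mRpL18, mRpL2, mRpL28 and mRpS34. mRpL46 and mRpL18 are, in mammals, proteins of the central protuberance, the knob of the large subunit that faces the small one. mRpL46 was 0.14 ± 0.06 (SE) higher in courtship males, with an unadjusted p of 0.0356 and an adjusted p of 0.9995 in limma. mRpL18 was at 8.69, 8.39, 8.85, 8.80 and 8.72 in courtship males, against 8.73, 8.38, 8.52, 8.42 and 8.47 in control males. The arms overlapped, with courtship array 2 low and control array 1 high, and the difference was 0.19 ± 0.10.

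mRpL2, the counterpart of a bacterial protein next to the peptidyl transferase centre where peptide bonds form, stood at 9.33, 9.05, 9.41, 9.49 and 9.42 in courtship males, against 9.33, 9.15, 9.22, 9.01 and 9.11 in control males. The difference was 0.18 ± 0.10, with courtship array 2 below 4 of the 5 control arrays. mRpL28, a large subunit protein shared with bacteria, differed by 0.10 ± 0.06 and mRpS34, a small subunit protein without a bacterial counterpart, by 0.13 ± 0.09. mRpL45, the member named as lower, had means of 8.42 in both arms and a difference of -0.0005 ± 0.09.

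The size of this lean varied most with courtship array 2 and control array 4. The median over members was 0.14 without courtship array 2 and 0.06 without control array 4, the highest and lowest of the 15 values with 1 array left out. On the 12 arrays without raised 3′ over 5′ ratios, 70 of 71 probe sets were higher with a median of 0.14, 8 of them at an unadjusted p below 0.05 and 0 called. Over all tested probe sets the median was then 0.02, and 3.99% were higher at that p. With the 3′ over 5′ ratio as a covariate the median over members was 0.15 and 22 members were higher at an unadjusted p below 0.05, against 4.58% of all tested probe sets, and 0 were called. Courtship and control pools whose sample codes begin with the same letter gave medians of -0.06 for letter A, -0.07 for C, 0.14 for D and 0.15 for H. What the letter stands for is not given in the labels, and the sign was not the same in the 4 pairs. Among the cell-type markers, the 3 head fat body probe sets past the filter were 0.03 to 0.53 higher in courtship males (median 0.49). The summed intensities of the list were 34820 to 41500 in courtship males and 31640 to 37560 in control males, and 2 probe sets had an unadjusted p below 0.05. The muscle, photoreceptor, neuronal and glial lists had medians of -0.04, -0.09, -0.01 and 0.04, of 2 haemocyte probe sets 1 was higher and 1 lower, and 0 markers were called. The part of these cell types was not tested.

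In males of the male arm against control males, 70 of 71 probe sets were higher, and mRpS5 was the lower one. The median difference was 0.24 (1.18-fold), and the 70 higher probe sets lay between 0.09 (1.06-fold) and 0.49 (1.40-fold). Over all tested probe sets the median was 0.02, with 4719 higher and 4207 lower. limma called 1 member, mRpL46, which rose, while 2.17% of all tested probe sets were called higher. A share of 1 in 71 is near that background.

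At an unadjusted p below 0.05, 43 of 71 members were higher and 0 lower, where 18.5% of all tested probe sets were higher. Of the members, 28 had an adjusted p between 0.05 and 0.10, and 29 were below 0.10. At that threshold of 0.10, 12.8% of all tested probe sets were called higher. All 5 male arrays exceeded all 5 control arrays in 7 members, against 7.26% of all tested probe sets. A count of 7 in 71 is near that background. The 7 were mRpL28, mRpL42, mRpL46, mRpL47 by 1 of its probe sets, mRpS24, mRpS26 and mRpS34. mRpS26 was picked out for this overlap after its values had been seen. In all 5 processings 65 probe sets were higher in the male arm and 1, mRpS5, was lower.

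**Figure D3:**
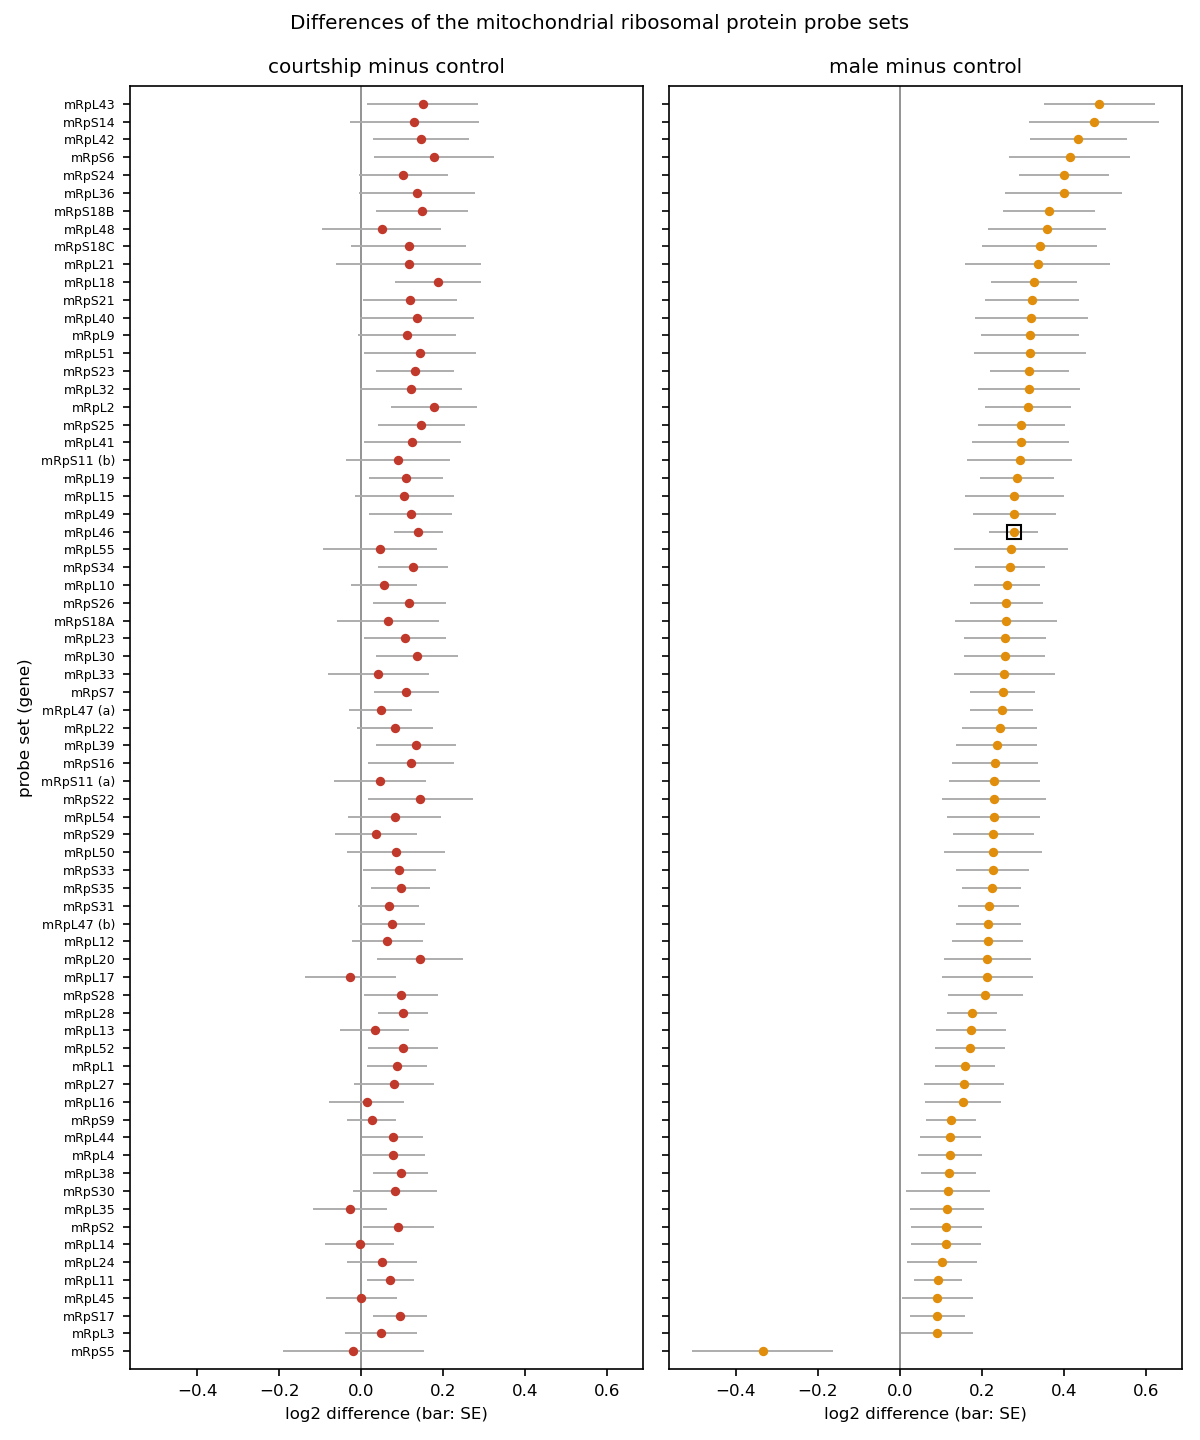
Difference of each probe set with its SE, courtship minus control on the left and male minus control on the right, in log2 units and in the order of the right panel; (a) and (b) are the 2 probe sets of a gene and the open square marks an adjusted p below 0.05. On the right 70 of 71 points lie above 0 and mRpS5 lies at -0.33; on the left the points lie between -0.03 and 0.19, and both panels use the same control arrays.

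mRpL46, a central protuberance protein in mammals, gave the call. Its log2 values were 9.36, 9.34, 9.19, 9.26 and 9.33 in the male arm, against 8.96, 9.03, 9.08, 9.03 and 8.99 in the control arm. The 2 arms did not overlap, and both were tight, with SDs of 0.07 and 0.05. The difference was 0.28 ± 0.06 (SE, 1.21-fold), with an unadjusted p of 0.00034 and an adjusted p of 0.0386 in limma. Courtship arrays, at 9.12, 9.03, 9.27, 9.13 and 9.23, lay between the other arms and overlapped with both.

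This call was a narrow one. With 1 of the 15 arrays left out it held in 6 of 15 models and was lost in 9, over adjusted p-values of 0.018 to 0.107, while the difference stayed between 0.26 and 0.30. It held without courtship arrays 2 or 5, male arrays 1, 3 or 4, or control array 1, and was lost without any other array. It held in 3 of the other 4 processings and was lost with dChip PM-MM (0.185, adjusted p 0.0662). The difference was 0.25 with an adjusted p of 0.12 without male arrays 1 and 5, and 0.23 with an adjusted p of 0.105 without control array 1 as well.

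Other members had larger differences with wider spread. mRpL43, which has no bacterial counterpart, had the largest, at 8.75, 8.37, 8.30, 8.18 and 8.88 in the male arm and 8.24, 7.97, 8.11, 7.77 and 7.98 in the control arm. Male array 4 lay below control array 1, so the arms overlapped, and male arrays 1 and 5 stood above the rest. The difference was 0.49 ± 0.14 (1.40-fold, adjusted p 0.0519), and 0.27 without male arrays 1 and 5.

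mRpL42, likewise without a bacterial counterpart, was at 9.25, 9.24, 9.09, 9.03 and 9.61 in the male arm and 9.01, 8.78, 8.98, 8.64 and 8.64 in the control arm. Every male array was above every control array, with male array 5 the highest. The difference was 0.44 ± 0.12 (adjusted p 0.0506), and 0.31 without male arrays 1 and 5.

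mRpS24, the counterpart of bacterial S3 at the mRNA entry of the small subunit, was at 9.39, 9.04, 8.84, 8.84 and 9.18 in the male arm and 8.80, 8.68, 8.78, 8.53 and 8.50 in the control arm. The arms did not overlap, though male arrays 3 and 4 stood only just above control array 1. The difference was 0.40 ± 0.11 (adjusted p 0.0506), and 0.25 without male arrays 1 and 5. mRpS23, a small subunit protein without a bacterial counterpart, differed by 0.32 ± 0.10 (adjusted p 0.0593) with overlapping arms, and by 0.20 without male arrays 1 and 5.

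The members shown above for courtship against control were also higher in the male arm without passing the threshold. mRpL18 differed by 0.33 ± 0.10 (adjusted p 0.0646), mRpL2 by 0.31 ± 0.10 (adjusted p 0.0714) and mRpS34 by 0.27 ± 0.09 (adjusted p 0.0641). mRpL28 differed by 0.18 ± 0.06 (adjusted p 0.0764), mRpL45 by 0.09 ± 0.09 (adjusted p 0.463). Once male arrays 1 and 5 were left out, mRpL18 differed by 0.20, mRpL2 by 0.24, mRpS34 by 0.17 and mRpL28 by 0.12, and mRpL45 had the other sign at -0.06. These differences share the control arrays with those of the courtship arm.

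mRpS5 stood at 11.78, 11.80, 12.16, 12.08 and 11.13 in the male arm and 12.21, 12.24, 12.09, 12.01 and 11.99 in the courtship arm, against 11.68, 12.26, 12.24, 12.40 and 12.05 in the control arm. The 3 arms overlapped. Its lowest values were on male array 5 and control array 1, with male arrays 1 and 2 next, so that the low arrays included the 3 with raised 3′ over 5′ ratios. The difference between the male and control arms was -0.33 ± 0.17 (p 0.0711, adjusted p 0.179) and did not pass. Male arrays 1 and 5 left out, it was -0.11.

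**Figure D4:**
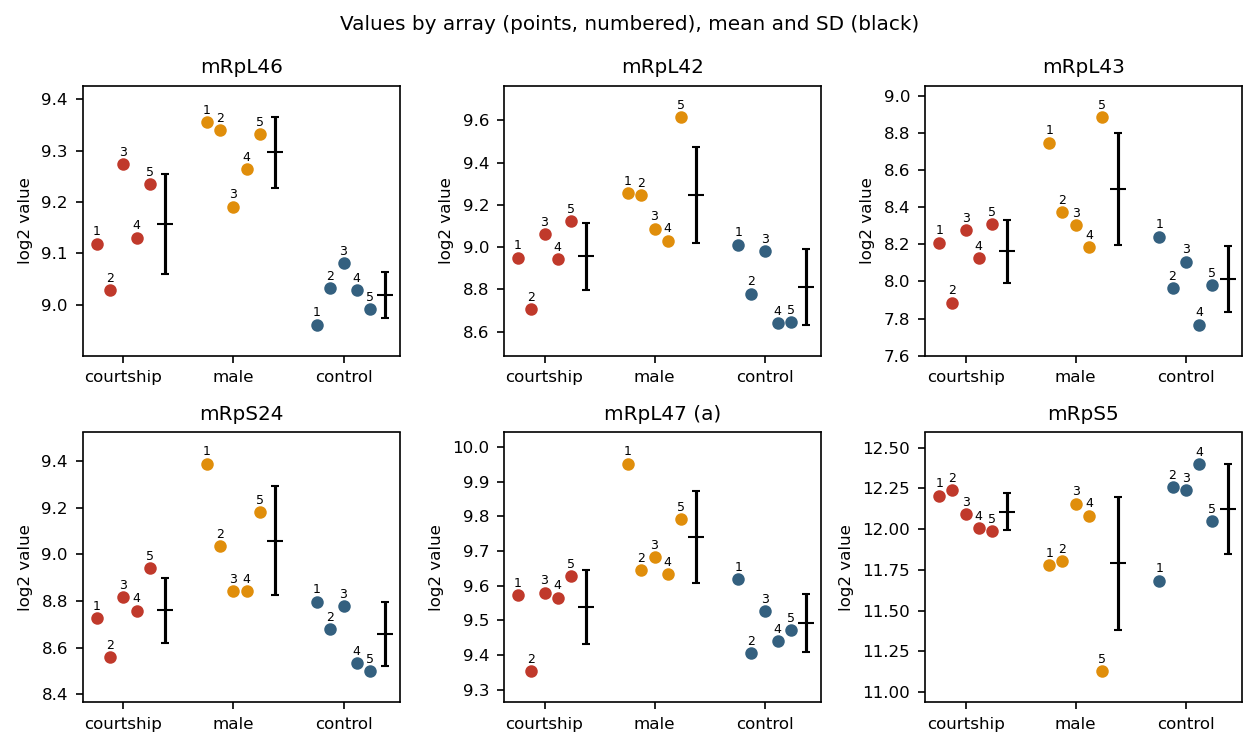
Log2 value on each array (numbered points) with mean and SD in black (n = 5 an arm) for 6 members, with courtship, male and control from left to right; mRpL47 (a) is the probe set whose arms do not overlap between male and control. mRpL46, mRpL42, mRpS24 and mRpL47 (a) separate the male from the control arm, mRpL43 overlaps, and mRpS5 is lowest on male array 5.

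By place on the ribosome, the median was above 0 in every region. Regions are those known from bacterial and mammalian ribosomes, and where 1 protein touches several the choice is rough. The 45 large subunit and 26 small subunit probe sets had medians of 0.24 and 0.24, with 25 and 18 higher at an unadjusted p below 0.05. The 44 probe sets of proteins with a bacterial counterpart had a median of 0.25, with 43 higher and 1 lower, and the 27 of proteins found only in mitochondrial ribosomes a median of 0.24, with 27 higher. With male arrays 1 and 5 left out, the medians were 0.12 for the large and 0.13 for the small subunit, and 0.12 and 0.14 for proteins with and without a bacterial counterpart.

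In the large subunit, the 5 probe sets of the central protuberance (mRpL18, mRpL38, mRpL40, mRpL46 and mRpL48) had a median of 0.32 and the 5 around the peptidyl transferase centre (mRpL2, mRpL3, mRpL4, mRpL16 and mRpL27) one of 0.15. The 3 of the stalk, which in bacteria brings in the translation factors, had a median of 0.21, among them mRpL10 at 0.26 ± 0.08 (adjusted p 0.0607). The 8 at the exit of the peptide tunnel, which in mammals faces the inner membrane, had a median of 0.23. In the small subunit, the 7 of the head had a median of 0.23 and the 5 of the platform one of 0.32. The 3 probe sets placed at the mRNA entry and exit or on the body (mRpS2, mRpS5 and mRpS24) had the lowest median, 0.11, with 2 higher and mRpS5 lower. The 35 probe sets placed in none of these regions had a median of 0.26. With male arrays 1 and 5 left out, the region medians lay between 0.11 and 0.17, and mRpL10 differed by 0.19. No difference between regions was tested, and each region's range overlapped with those of the others.

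Genes with 2 probe sets gave a check within a gene. mRpL47, whose bacterial counterpart sits at the tunnel exit, was by probe set (a) at 9.95, 9.65, 9.68, 9.63 and 9.79 in the male arm, against 9.62, 9.41, 9.53, 9.44 and 9.47 in the control arm. Male array 4 was just above control array 1, so these arms did not overlap, while those of probe set (b) did. For (a) and (b) the differences between the male and control arms were 0.25 ± 0.08 (adjusted p 0.0597) and 0.22 ± 0.08 (adjusted p 0.0875). For mRpS11, a platform protein, they were 0.23 ± 0.11 (adjusted p 0.158) and 0.29 ± 0.13 (adjusted p 0.123). Within each gene the probe sets differed from each other by less than their SEs, and none of the 4 passed. These differences were 0.16 and 0.13 for mRpL47 and 0.10 and 0.13 for mRpS11 with male arrays 1 and 5 left out. In courtship against control the differences were 0.05 and 0.08 for mRpL47 and 0.04 and 0.09 for mRpS11.

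The male difference was smaller, with the same direction, once the arrays with raised 3′ over 5′ ratios were left out. Without male arrays 1 and 5 the median over members was 0.12, with 67 higher and 4 lower, 12 at an unadjusted p below 0.05 and 0 called by limma. Over all tested probe sets the median was then 0.00, 11.2% were higher at that p and 0% were called. Without control array 1 as well it was 0.17, with 69 higher and 2 lower, 22 at an unadjusted p below 0.05 and 0 called, against 12.1% of all tested probe sets higher at that p and a median of 0.02. With the 3′ over 5′ ratio as a covariate, the median was 0.20 and 12 members were called, against 5.84% of all tested probe sets called higher. With 1 array left out, the median ran between 0.195 (without male array 1) and 0.29 (without control array 1). Male and control pools with the same first code letter gave medians of 0.25 for letter A, 0.20 for F and 0.43 for H, with 65, 66 and 69 of 71 probe sets higher. The pairs of letters A and H hold male arrays 1 and 5, and that of A also control array 1.

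The single call likewise depended on which arrays were in the model. limma called 11 members when courtship array 2 was left out and 4 for courtship array 5. Leaving out male array 4 gave 10, male array 3 gave 5 and control array 1 gave 7. Calls over the whole array moved too: 7.34%, 5.27%, 3.27%, 3.05% and 3.45% of all tested probe sets were called higher in these 5 models. The count was 1 without male array 1, and 0 without any of courtship arrays 1, 3 or 4, male arrays 2 or 5, or control arrays 2, 3, 4 or 5. Over all tested probe sets 1.27% were called higher without male array 1, and between 0% and 0.336% in the models with 0 members called. The other 4 processings called 2 (dChip PM), 0 (dChip PM-MM), 2 (MAS5) and 5 (GCRMA in GeneSpring), beside 1.75%, 0.157%, 0.706% and 4.06% of all tested probe sets called higher, with medians of 0.15, 0.15, 0.21 and 0.23 over members.

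Markers of cell types also differed between the male and control arms. All 6 muscle probe sets were lower in the male arm, with summed intensities of 4145 to 7178 in the male arm and 6421 to 7800 in the control arm, and 1 of sls (-1.38, adjusted p 0.0485) was called. Of 6 neuronal probe sets 2 were below the filter and the other 4 were lower (471.7 to 1942 in the male arm, 1229 to 2908 in the control arm), and 0 were called. All 3 photoreceptor probe sets were lower, with sums of 35760 to 41830 in the male arm and 45760 to 52440 in the control arm that did not overlap, and trp fell by 0.34 (adjusted p 0.0485). Of 4 head fat body probe sets, that of the yolk protein Yp1 was below the filter and the other 3 were higher, by 0.02 to 0.76. Sums over the list were 37500 to 39460 in the male arm and 31640 to 37560 in the control arm, and 0 probe sets were called. The 3 glial probe sets were at 0.04 to 0.14 above control, and of 2 haemocyte probe sets that passed the filter 1 was higher and 1 lower. With male arrays 1 and 5 left out, the muscle, neuronal and photoreceptor medians were -0.24, -0.19 and -0.27, those of fat body and glia 0.41 and 0.24, and 0 markers were called. The summed intensities of the other 3 male arrays were then 5693 to 7178 for muscle, 1625 to 1942 for neurons and 39530 to 41290 for photoreceptors. The muscle probe sets read 4 genes: those of sls were then at -1.3, -0.345 and -0.428, Mlc2 at -0.13, Tm2 at -0.04 and up at 0.08. Neuronal probe sets did not share a sign, with brp at -0.345 and 0.08, elav at -0.05 and nSyb at -0.33. The part of these cell types in the members' difference was not tested.

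In courtship males against males of the male arm, 69 of 71 probe sets were lower, and none was called. The median difference was -0.14 (1.10-fold lower), against -0.01 over all tested probe sets, and the 2 higher probe sets were mRpS5 (0.32 ± 0.17, adjusted p 0.365) and mRpS17 (0.003 ± 0.07, adjusted p 0.985). limma called 0 members and 0% of all tested probe sets as lower. At an unadjusted p below 0.05, 9 members were lower, with a background of 7.21% of all tested probe sets, and the other 4 processings called 0 members. In 1 member, mRpL47 by its probe set (a), all 5 courtship arrays lay below all 5 male arrays, as in 1.02% of all tested probe sets. mRpS17 was picked out for its sign after it had been seen.

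mRpL47 by that probe set was at 9.57, 9.35, 9.58, 9.57 and 9.63 in courtship males, against 9.95, 9.65, 9.68, 9.63 and 9.79 in males of the male arm. The highest courtship array was just below the lowest male array, and the difference was -0.20 ± 0.08 (adjusted p 0.325). mRpS24 differed by -0.30 ± 0.11, mRpL43 by -0.34 ± 0.14, mRpL42 by -0.29 ± 0.12 and mRpL10 by -0.21 ± 0.08, each with an adjusted p of 0.325. The lean was smaller without male arrays 1 and 5: the median was -0.04, against 0.01 over all tested probe sets, with 18 members higher, 53 lower and 0 at an unadjusted p below 0.05. Without them mRpL47 (a) differed by -0.11, mRpS24 by -0.15, mRpL43 by -0.13, mRpL42 by -0.16, mRpL10 by -0.13 and mRpS5 by 0.09. With 1 array left out the median was -0.19 without male array 4 and -0.10 without male array 1.

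Courtship and male pools with the same first code letter gave larger medians, -0.32 for letter A and -0.29 for H, the pairs that hold male arrays 1 and 5. With the letter as a block the median over members was -0.28 and 0 members were called, while 1.12% of all tested probe sets were called higher and 0.773% lower. Muscle markers were higher in courtship males in 6 of 6 probe sets, with a median of 0.42, sums of 6004 to 8151 in courtship males and 4145 to 7178 in males of the male arm, and 4 at an unadjusted p below 0.05. Photoreceptor markers were higher in 3 of 3 with a median of 0.18, and neuronal markers in the 4 that passed the filter with a median of 0.44. Glial markers were lower in 3 of 3, fat body markers higher in 2 and lower in 1, both haemocyte markers lower, and 0 markers were called. Leaving out male arrays 1 and 5, the muscle, photoreceptor and neuronal medians were 0.21, 0.17 and 0.12, with 5 of 6 muscle probe sets higher. The glial median moved from -0.04 to -0.23, that of fat body from 0.01 to 0.02 and that of haemocytes from -0.26 to -0.31. The part of these cell types was not tested.

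Other genes of mitochondrial translation and respiration leaned the same way in the male arm by less. Among nuclear genes of oxidative phosphorylation, whose complexes take up the products of the mitochondrial ribosome, 52 of 59 tested probe sets were higher and 7 lower, with a median of 0.12, 20 higher and 1 lower at an unadjusted p below 0.05, and 0 called. In courtship against control 53 of the 59 were higher with a median of 0.04. With MAS5 that median was 0.07, above the 0.06 of the members in the same comparison. Cytosolic ribosomal proteins, which build the other ribosome of the cell, had 30 of 35 probe sets higher and a median of 0.05. limma called 0 of them, and 3 were higher at an unadjusted p below 0.05, against 18.5% of all tested probe sets. Their median in courtship against control was 0.02, and with dChip PM-MM it was -0.005 in both comparisons, the other sign. No difference between these lists and the members was tested.

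tko and bonsai, which encode the S12 and S15 proteins of the mitochondrial ribosome and fall outside the naming rule, were 0.32 (adjusted p 0.122) and 0.17 (adjusted p 0.158) higher in the male arm. They were 0.06 and 0.10 higher in courtship males, also without passing. Mitochondrial translation factors had a median of 0.09 over 8 probe sets, with 6 higher, and mitochondrial aminoacyl-tRNA synthetases, which load tRNAs with amino acids, 0.08 over 15, with 12 higher. Genes for the upkeep of mitochondrial DNA and RNA had a median of 0.13 over 9 probe sets, with 7 higher, and those for protein import 0.09 over 8, with 7 higher. limma called 0 probe sets of these 4 lists. Of them 1, 5, 1 and 1 were higher at an unadjusted p below 0.05, against 18.5% of all tested probe sets. With male arrays 1 and 5 left out, oxidative phosphorylation genes had a median of 0.05 and cytosolic ribosomal proteins one of 0.04, beside 0.12 for the members. tko was then at 0.11 and bonsai at 0.09, and the medians were 0.05 for translation factors, 0.09 for the synthetases, 0.07 for DNA and RNA upkeep and 0.04 for import, with 0 called.

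**Figure D5:**
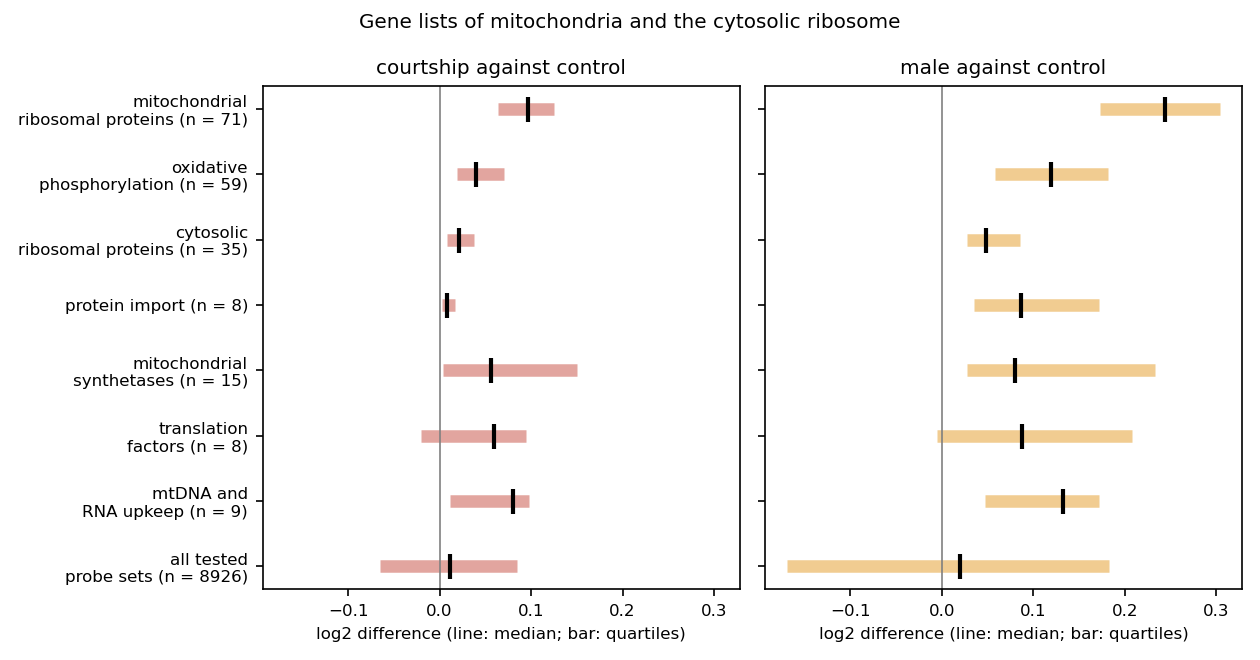
Median (black line) and quartiles (bar) of the log2 differences of probe sets in each list, courtship against control on the left and male against control on the right, with the number tested in brackets. The mitochondrial ribosomal proteins have medians of 0.10 and 0.24 and all tested probe sets 0.01 and 0.02; both panels use the same control arrays.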

How the data were processed

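The authors processed 15 Affymetrix Drosophila arrays in 5 ways and deposited 75 columns, 1 for each array and processing, per the labels (dChip PM, dChip PM-MM, MAS5, GCRMA in R and GCRMA in GeneSpring). By their range, the deposited columns hold intensity that is not in logs. GCOS 1.2 and GCRMA are named in the submitters' processing notes, and the scaling behind the dChip and MAS5 values is not given in the sources used here. GCRMA draws dim probe sets together, which shrinks their differences.

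Log2 was taken of each value (PM-MM values below 1 were set to 1). Probe sets with a mean log2 of at least 4 in the R GCRMA columns, without AFFX controls, entered a one-way limma model over all 15 arrays with 12 residual degrees of freedom. p-values are two-sided and adjusted within a contrast over 8926 probe sets. limma 3.58.1 ran in R 4.3.3. Figures used matplotlib 3.10.9 in Python 3.11.15, with numpy 2.4.6 and pandas 2.3.3. The model was tested on simulated data.

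Names come from the array's annotation. All 71 members matched a RefSeq gene table (assembly Release 6 plus ISO1 MT), with 0 symbols changed, and no coordinates were used. Of 73 genes of this naming in that table, 4 are not members: mRpS10 and mRpL53 share their probe set with another gene, and mRpL34 and mRpL37 have no probe set with that symbol alone. The members and lists were chosen with earlier results of these data known. Named with values were members past the threshold, per contrast the 5 higher and 5 lower by p with 1 sign in R GCRMA, MAS5 and dChip PM, and genes with more than 1 probe set (14 genes, 16 probe sets). Alternatives were the other processings, filters, scalings, blocks, variance settings, array weights, a threshold of 0.10, subsets of arrays and the 3′ over 5′ ratio as a covariate.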

Additional observations from a re-analysis of the deposited data

Results flagged for a closer look

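The mRpL47 probe set that separates the courtship from the male arm had 1 courtship array far from the others: courtship array 2 was at 9.353, and the other 4 courtship arrays lay between 9.565 and 9.627, a gap of 0.773 of the arm's range. Courtship array 2 was also low in the members as a whole. Over the 51 groups of 5 arrays checked this was the only such array. Chance flags about 1 in 20 groups.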

How the results depend on the processing

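The number of members called in the male against the control arm, 1 with the values used, was the result that changed most. It was 2 with dChip PM, 0 with dChip PM-MM, 2 with MAS5, 5 with GCRMA in GeneSpring, 4 with a mean log2 of at least 6, 0 with no filter, 5 with centred arrays and 6 with quantile normalization. Of all tested probe sets 2.17% were called higher with the values used, and under the last 4 settings 5.07%, 0.032%, 3.75% and 5.11% were. It was 14 with the code letter as a block, 4 with trend and robust variances, 13 with array weights, 12 with the 3′ over 5′ ratio as a covariate and 29 at a threshold of 0.10, beside 6.09%, 4.29%, 10.2%, 5.84% and 12.8% of all tested probe sets. It was 0 without male arrays 1 and 5 and 0 without control array 1 as well, and 0 to 11 with 1 array left out. These models hold fewer arrays, and the cause of the changes was not tested in any case. With the code letter as a block, the median of courtship against male was -0.28. Members called stayed at 0 in the other 2 contrasts under every setting tried. With 1 array left out, the medians were 0.06 to 0.14 for courtship against control, 0.195 to 0.288 for male against control and -0.19 to -0.10 for courtship against male.

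With the replicate number as a block, 19 members were called in male against control, beside 9.47% of all tested probe sets called higher. The labels give shared replicate numbers but no shared batch, so the main model did not take the numbers as pairs. Same-numbered arrays had residual correlations of -0.288 to 0.473. In 12 of 30 comparisons an array matched best with its own number, out of the 5 arrays of the other arm. These values do not show that the arrays are unpaired, and whether same-numbered arrays share a batch was not tested.

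Single members gave 841 values under most, not all, of the other settings. Of these, 763 kept direction and side of the threshold and 52 passed it newly. Another 12, all of mRpL46, no longer passed, and 14 changed sign, all in courtship against control. mRpL45 (-0.0005) was at 0.0239 in GeneSpring, 0.00126 with quantile normalization, 0.0368 with array weights, 0.0259 without male arrays 1 and 5 and control array 1, 0.0554 with the covariate, and -0.0262 to 0.0259 with 1 array left out, with 5 of these above 0. mRpS11 by 1 probe set was at -0.0213 with dChip PM, -0.0331 with PM-MM and -0.0149 with the letter block, and mRpL47 by probe set (b) at -0.0264 with dChip PM. Array number limits all of these: the pooled SD of the members' mean was 0.132.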
